A study of Mus musculus with 6 samples.

Results

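The genes described here are the hypoxia-inducible factors (HIF), the proteins that hold them in check, and their best known targets, the glycolytic enzymes among them. The 39 members are set by a list of names from textbook knowledge of the pathway, drawn up with earlier results of these data known, and all 39 were listed among the 24984 gene symbols in the count files. They fall into 3 HIF factors, 5 HIF inhibitors and oxygen sensors, 18 genes of glucose entry and glycolytic steps, 4 genes that set the fate of pyruvate and lactate, and 9 other hypoxia targets. RNA was sequenced from inguinal white adipose tissue, the subcutaneous fat depot of the groin, of mice on a high-fat diet (HFD). The WT HFD group (n = 3) and the Mpst KO HFD group (n = 3) shared tissue and diet and differed in genotype, wild type against Mpst knockout. No source used here gives the allele, strain, sex, age or length of the diet, or says whether each library came from its own animal. The p-values therefore rest on differences between these libraries, which may be technical.

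Libraries held 8054560 to 22458630 counts in genes, the fewest in knockout replicate 1. Mpst, which encodes a sulfurtransferase that makes hydrogen sulfide, stood at 75.4 to 84.7 CPM (counts per 1e6 of the scaled library size) in wild type and 0.358 to 0.440 CPM in knockout, so each library matched its label. Adipocyte markers were present in every library, with none of the 10 listed at 0 and a summed level of 48850 to 60013 CPM in the wild-type libraries and 37021 to 45750 CPM in the knockout ones.

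HIF is a pair of proteins, an oxygen-labile alpha subunit, encoded by Hif1a or Epas1, and a stable partner, encoded by Arnt. With oxygen present, prolyl hydroxylases of the Egln family mark the alpha subunit, the Vhl ubiquitin ligase then sends it for degradation, and the asparaginyl hydroxylase Hif1an limits its contact with coactivators. This control acts on the protein, so a transcript level of a HIF factor is not a measure of HIF activity. HIF binds a short core, ACGTG or GCGTG, near genes for glucose uptake, glycolysis, lactate production, vessel growth and mitophagy, and fat of obese animals is known for low oxygen and for macrophages gathered around adipocytes.

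Of the 36 members found in the RefSeq promoter table (GRCm38.p6), 18 held ACGTG on either strand in the 250 bases before the start and 20 (55.6%) held GCGTG, with 28 (77.8%) holding at least 1 of them. The shares over 27025 genes of that table were 16.6% for ACGTG, 28.2% for GCGTG and 38.6% for at least 1, and over the 11038 of them that were tested here 21.3%, 44.0% and 55.2%. Where a member had several windows, the one with the most annotated transcript starts was taken. With the first listed window, as for the other genes, 19 members (52.8%) held GCGTG and the other shares were as given. A match is only a match of letters. The cores may overlap, and CACGTG, which reads the same on both strands, counts as 2 matches. The windows of 3 members are printed because their results stand apart: Hif1a was called higher in the knockout, and Ldha, with the most ACGTG matches among the 36, was not called while its sister gene Ldhb was called lower. Each runs 5′ to 3′ on the strand of the gene, stops at the RefSeq start and overlaps no exon of GENCODE M21, with matches to either core on either strand in capitals.
Hif1a, chr12:73907617-73907866, plus strand: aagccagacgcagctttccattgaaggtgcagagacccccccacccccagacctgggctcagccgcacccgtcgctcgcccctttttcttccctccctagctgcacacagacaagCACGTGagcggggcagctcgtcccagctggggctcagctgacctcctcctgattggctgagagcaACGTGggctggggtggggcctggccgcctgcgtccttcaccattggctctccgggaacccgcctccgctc
Ldha, chr7:46845554-46845803, plus strand: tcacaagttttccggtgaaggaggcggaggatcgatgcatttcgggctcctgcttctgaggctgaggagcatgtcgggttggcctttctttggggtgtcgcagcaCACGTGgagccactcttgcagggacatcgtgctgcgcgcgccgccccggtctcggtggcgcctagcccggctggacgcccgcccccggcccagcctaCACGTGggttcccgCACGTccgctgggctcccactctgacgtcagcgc
Ldhb, chr6:142507958-142508207, minus strand: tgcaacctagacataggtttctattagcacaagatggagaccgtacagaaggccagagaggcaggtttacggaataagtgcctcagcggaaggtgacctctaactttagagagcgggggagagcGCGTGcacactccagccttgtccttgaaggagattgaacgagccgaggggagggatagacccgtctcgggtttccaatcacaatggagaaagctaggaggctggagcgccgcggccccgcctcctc
Hif1a held 3 matches to ACGTG and none to GCGTG, and Ldha held 5 and none. Ddit4 held 1 of each, and Ldhb held none to ACGTG and 1 to GCGTG. Among the other members that were called, Hk3 held 1 match to ACGTG and Egln2 held 1 to ACGTG and 3 to GCGTG.

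Most of the pathway did not pass the test between genotypes. Of the 38 members that passed the low-count filter, Hif1a, Hk3 and Ddit4 rose and Egln2 and Ldhb fell at an adjusted p under 0.05 by edgeR's quasi-likelihood test. That is 7.89% higher and 5.26% lower, against 4.76% and 2.65% of the 14065 genes tested (7.41% in either direction). All 3 knockout libraries lay beyond all 3 wild-type ones for 12 of the 38 (31.6%), against 33.3% of all tested genes, so on that count the members stood close to the background. Aldoc was not tested, with 2 to 12 counts in every library. The median log2 fold change was 0.039 over the HIF factors and −0.046 over the inhibitors and sensors. It was −0.0070 over the 30 tested targets and glycolytic steps, beside 0.0052 over all tested genes. The median of the HIF factors is the value of Arnt, with Epas1 at 0.0014 and Hif1a at 1.40. All 5 member calls were kept with other library scalings, other filters, DESeq2 and limma-voom. With each library left out, they came to 3 higher and 1 lower without wild-type replicate 1 and 5 higher and 2 lower without wild-type replicate 3, and to none without wild-type replicate 2 or any 1 knockout library. None was left without both libraries highest in skeletal muscle markers, wild-type replicate 2 and knockout replicate 3. That fit called 0 of all tested genes higher and 1 lower, as did the fit without wild-type replicate 2 alone. Without both libraries the log2 fold changes were 1.36 for Hif1a, 1.76 for Hk3, 1.16 for Ddit4, −0.45 for Egln2 and −0.69 for Ldhb. These were close to those with all 6. On GRCm38, Egln2 covers 27158658 to 27166802 on chromosome 7, Hk3 55005985 to 55021385 on chromosome 13, Ldhb 142490249 to 142507957 on chromosome 6 and Ddit4 59949669 to 59951834 on chromosome 10.

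**Figure D1:**
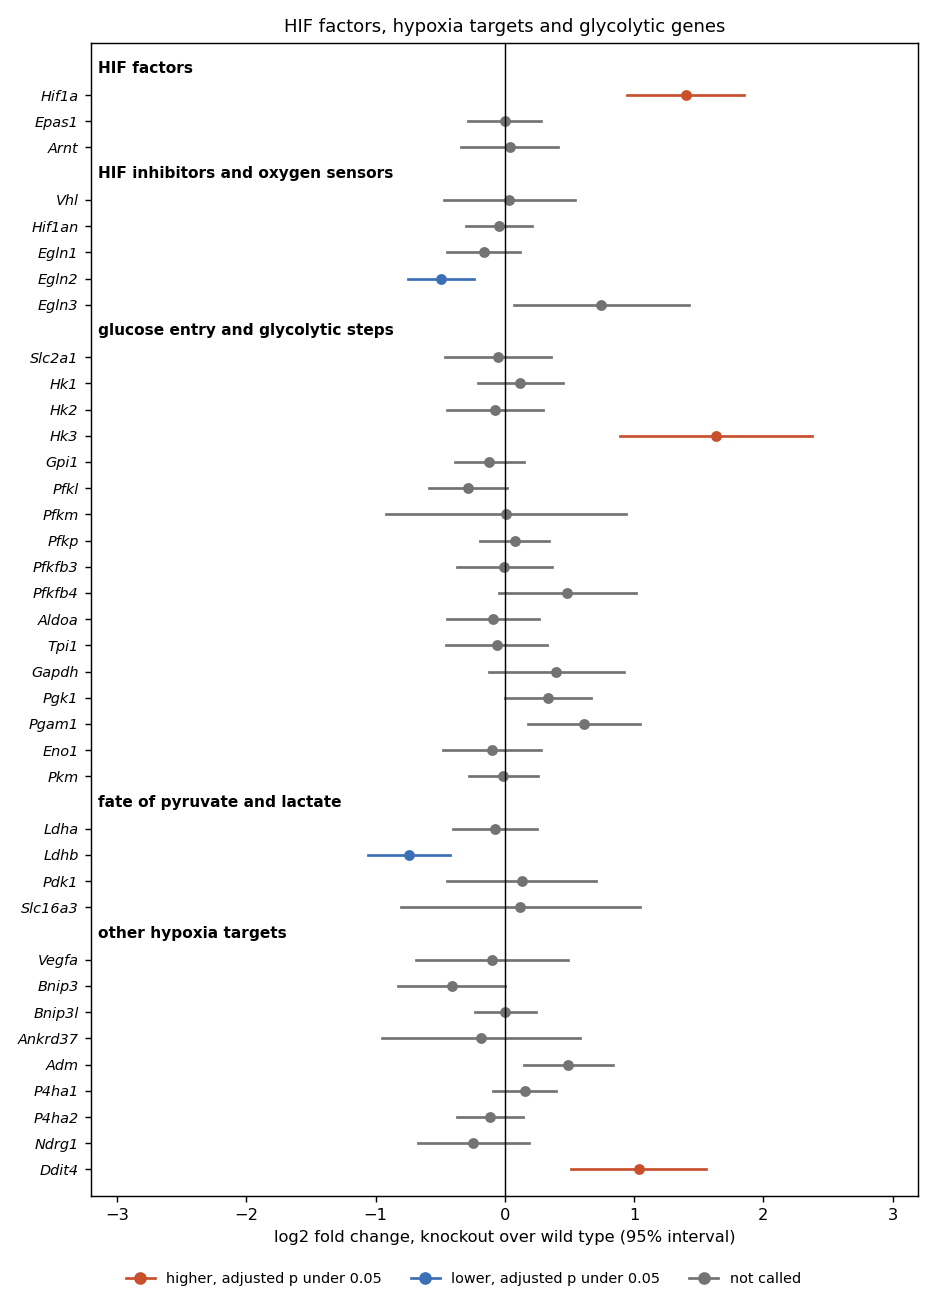
Log2 fold change of the 38 tested members, knockout over wild type, by role; points are estimates from edgeR and lines their 95% intervals (n = 3 libraries a group), orange for members called higher, blue for members called lower and grey for the rest. Hif1a, Hk3 and Ddit4 lie to the right of 0, Egln2 and Ldhb to the left, and 33 members are grey.

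Hif1a rose, and neither Epas1 nor Arnt was called. Hif1a stood at 51.0, 31.1 and 32.8 CPM in wild-type replicates 1, 2 and 3 and at 101, 113 and 88.7 CPM in knockout replicates 1, 2 and 3. All knockout libraries lay above all wild-type libraries. The mean rose 2.64-fold, from 38.3 ± 11.0 CPM to 101 ± 12.4 CPM (SD, n = 3; log2 fold change 1.40, SE 0.20, adjusted p = 0.0149). With each library left out the log2 fold change ranged from 1.27 to 1.67. Hif1a (ENSMUSG00000021109) covers 73901375 to 73947530 on chromosome 12 of GRCm38, and 8.77% of its exon bases overlap other annotated loci, Gm15283 on the opposite strand among them, which libraries that do not mark strand cannot separate.

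Epas1, which encodes HIF-2 alpha, stood at 456, 521 and 523 CPM in the wild-type libraries and 495, 503 and 504 CPM in the knockout ones. The groups overlapped, with means of 500.2 ± 37.8 and 500.6 ± 4.66 CPM. Its log2 fold change was 0.0014 with a 95% interval of −0.28 to 0.28 (adjusted p = 0.996). Arnt, the shared partner, stood at 39.4, 46.6 and 60.5 CPM in the wild-type libraries and 45.8, 49.8 and 54.7 CPM in the knockout ones, again overlapping (log2 fold change 0.039, interval −0.34 to 0.41). Per kilobase of exon, Epas1 was the more abundant alpha subunit in both genotypes, at 90.7 ± 6.86 CPM per kb in wild type and 90.8 ± 0.844 in knockout, against 7.03 ± 2.02 and 18.5 ± 2.27 CPM per kb for Hif1a. The log2 ratio of Hif1a to Epas1 CPM within a library was −3.74 ± 0.50 in wild type and −2.32 ± 0.18 in knockout, a 2.68-fold difference without overlap.

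**Figure D2:**
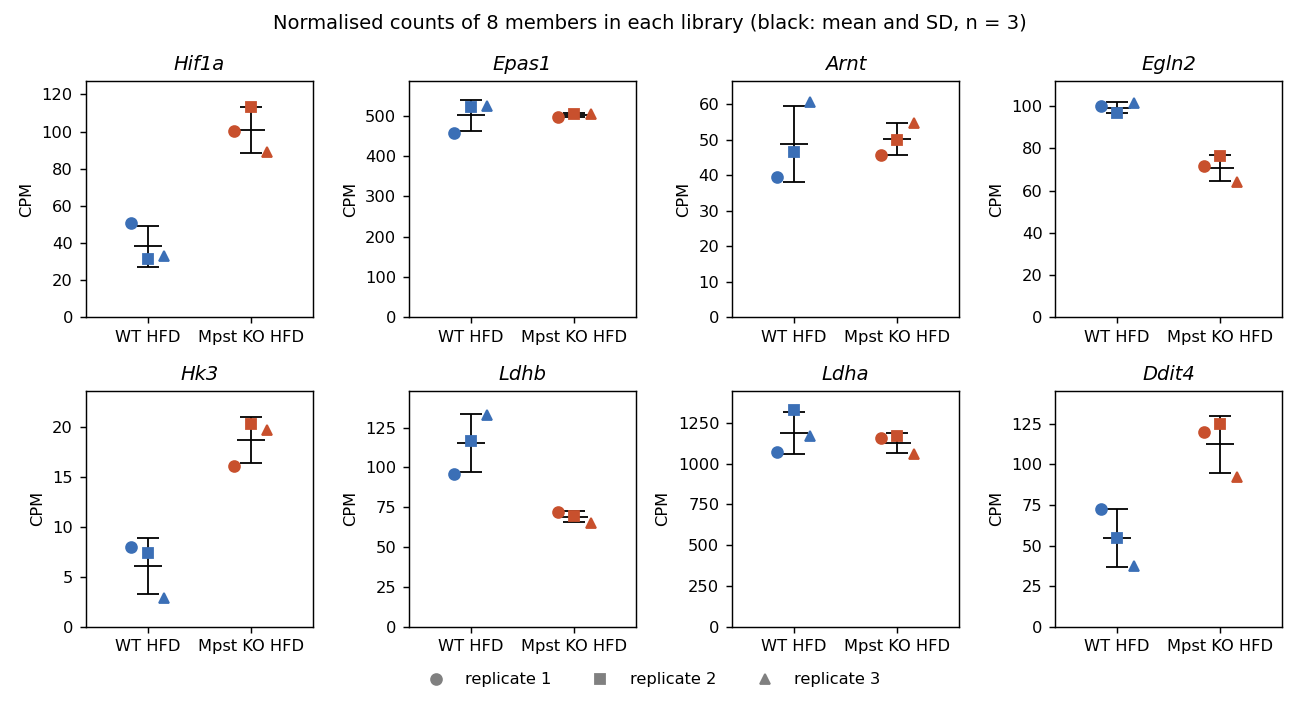
CPM of 8 members in each library, wild type in blue and knockout in orange. Marker shapes give the replicate number, which is not known to pair libraries, and black bars the mean and SD (n = 3). Hif1a, Hk3 and Ddit4 are higher in all knockout libraries, Egln2 and Ldhb lower in all of them, and Epas1, Arnt and Ldha overlap between genotypes.

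Among the proteins that restrain HIF, Egln2 was the member called. Egln2, a prolyl hydroxylase, stood at 100.1, 96.7 and 101 CPM in the wild-type libraries and at 71.8, 76.2 and 64.1 CPM in the knockout ones. Every knockout library was below every wild-type library, and the mean fell from 99.4 ± 2.41 CPM in wild type to 70.7 ± 6.12 (1.41-fold lower, log2 fold change −0.49, SE 0.11, adjusted p = 0.0377). Without wild-type replicate 1 Egln2 was not called (adjusted p = 0.0771). Egln1, the main oxygen sensor of the family, stood at 110, 132 and 140 CPM in the wild-type libraries and 111, 111 and 118 CPM in the knockout ones and was not called (log2 fold change −0.16, interval −0.44 to 0.12). Egln3, a hydroxylase that is also a HIF target, was scarce, at 1.78, 1.40 and 1.16 CPM against 1.91, 2.68 and 2.55 CPM. Its groups did not overlap, but with 16 to 61 counts in a library it did not pass (log2 fold change 0.75, SE 0.30, adjusted p = 0.145). Vhl had a log2 fold change of 0.035 and Hif1an of −0.046, with intervals of −0.47 to 0.54 and −0.30 to 0.21.

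Glucose entry and glycolysis gave a single call, that of Hk3. Of 17 tested members, 1 rose and none fell, 8 lay above 0 and 9 below, and the median log2 fold change was −0.0027. At an unadjusted p under 0.05, 3 were higher and none lower, in a table where 14.9% of genes were higher and 12.7% lower. The summed level of the 18 genes was 5095, 5315 and 4321 CPM in the wild-type libraries and 4561, 4711 and 4960 CPM in the knockout ones, so the groups overlapped. The 95% intervals of 10 of the 17 lay within a 1.5-fold change in either direction and those of 14 within a 2-fold change.

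Slc2a1, the glucose transporter GLUT1, stood at 14.1, 13.4 and 19.0 CPM in the wild-type libraries and 16.3, 13.1 and 15.6 CPM in the knockout ones, with overlap. Hexokinases, which trap glucose as glucose 6-phosphate, gave 1 call among 3. Hk2, the insulin-responsive form of fat and muscle, had a log2 fold change of −0.076 (interval −0.45 to 0.29) and Hk1 of 0.12 (−0.21 to 0.45). Hk3, a hexokinase known from myeloid cells, stood at 8.03, 7.36 and 2.93 CPM in the wild-type libraries and 16.1, 20.4 and 19.7 CPM in the knockout ones. It rose 3.10-fold without overlap, from 6.10 ± 2.77 CPM in wild type to 18.7 ± 2.30 (log2 1.63, SE 0.33, adjusted p = 0.0284), and with each library left out its log2 fold change ranged from 1.30 to 1.90. Per kilobase of exon Hk3 remained the scarcest of these hexokinases, at 5.58 ± 0.686 CPM per kb in knockout against 7.27 ± 1.30 for Hk1 and 16.5 ± 2.19 for Hk2.

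Phosphofructokinase is the committed step of glycolysis. Pfkl, the liver-type subunit, stood at 172, 188 and 145 CPM in the wild-type libraries and 142, 145 and 127 CPM in the knockout ones, where wild-type replicate 3 and knockout replicate 2 nearly touched (log2 fold change −0.29, adjusted p = 0.198). Pfkp, the platelet-type subunit, had a log2 fold change of 0.077 (interval −0.19 to 0.34). Pfkm, the muscle-type subunit, spread widest, at 25.4, 46.9 and 33.5 CPM in the wild-type libraries and 22.5, 23.9 and 59.2 CPM in the knockout ones. Its highest library in each group, wild-type replicate 2 and knockout replicate 3, was also the highest of that group in skeletal muscle markers, whose summed level was 48.4, 956 and 151 CPM in the wild-type libraries and 54.8, 45.5 and 2293 CPM in the knockout ones. None of 10 tested muscle markers was called by edgeR, DESeq2 or limma-voom, with 0 at an unadjusted p under 0.05 in edgeR, and Myh7 was at 0 in every library. The log2 fold change of Pfkm was 0.0087 with all libraries and −0.60 without knockout replicate 3, uncalled in both, and the part of muscle RNA in it was not tested.

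The bifunctional enzymes that set fructose 2,6-bisphosphate, the activator of phosphofructokinase, were not called. Pfkfb3 stood at 570 to 665 CPM in the wild-type libraries and 505 to 720 CPM in the knockout ones, and overlapped (log2 fold change −0.0027, interval −0.37 to 0.36). Pfkfb4 stood at 52.6, 43.5 and 25.0 CPM against 56.8, 59.3 and 53.0 CPM. Its groups were separated by less than 1 CPM and it was not called (0.48, adjusted p = 0.217).

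In the lower part of the pathway, the enzymes with the most counts were not called. Aldoa, aldolase A, was the most abundant member per kilobase of exon, at 1046 ± 129 CPM per kb in wild type. In CPM it stood at 1908 ± 235 in the wild-type libraries and 1791 ± 127 in the knockout ones (log2 fold change −0.091). Tpi1, triose phosphate isomerase (−0.063), Eno1, enolase (−0.10), and Pkm, pyruvate kinase (−0.011), were likewise not called, and their groups overlapped. The same held for Gpi1, glucose 6-phosphate isomerase of the upper part (−0.12). Pgam1, phosphoglycerate mutase, stood at 14.6, 23.4 and 24.4 CPM in the wild-type libraries and 34.0, 29.4 and 32.4 CPM in the knockout ones, with every knockout library above every wild-type library. Pgam1 missed the threshold (log2 fold change 0.61, SE 0.19, adjusted p = 0.0821) and passed it in 3 of 15 other settings, among them without wild-type replicate 3 (0.0217) and with DESeq2 (0.0442). Pgk1, phosphoglycerate kinase, also lacked overlap (68.2 to 97.9 CPM against 98.9 to 109 CPM) and was not called (0.33, adjusted p = 0.181).

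Several glycolytic genes have near-identical copies elsewhere. The counter's summary lines set up to 11.5% of a library's total aside as not uniquely aligned, so the counts of these genes are uncertain. That total is of the counter's entries, which may hold a read more than once. A transcript was cut into windows of the read length, 75 bases, and each window was searched in the transcripts of all other GENCODE M21 genes. A locus that overlaps the gene itself therefore also counts as sharing its windows. No window was shared for 20 of the 39 members, and over 40% were shared for 5. These were Pgk1 (67.5%), Gapdh (55.5%, with 121 other loci), Eno1 (44.3%), Bnip3 (43.7%) and Pgam1 (40.6%). For Bnip3 the sharing loci include Gm45507, which overlaps 27.2% of the exon bases of Bnip3. Gapdh, the glyceraldehyde 3-phosphate dehydrogenase often used as a reference gene, was counted at 8.76, 16.5 and 14.1 CPM in the wild-type libraries and 18.6, 15.1 and 18.5 CPM in the knockout ones, with overlap (log2 fold change 0.40, adjusted p = 0.292). Per kilobase of exon that is 8.79 ± 2.66 CPM per kb in wild type, against 1046 ± 129 for Aldoa and 387 ± 80.2 for Tpi1, which act just before it. Aldoa shared 0.71% of its windows and Tpi1 2.25%. Of the called members, Hif1a shared 4.88%, with Gm15283 and Gm49321, which overlap its own exons. Ldhb shared 12.6%, with the single locus Gm5514, and Hk3, Ddit4 and Egln2 shared none. How far shared windows set these levels was not tested.

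**Figure D3:**
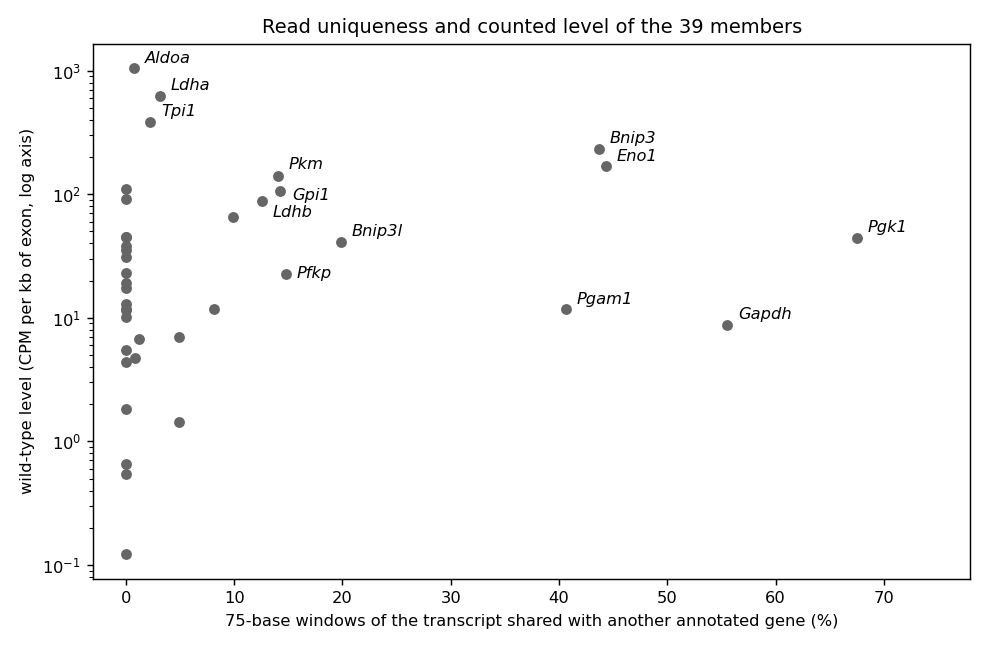
Each point is 1 of the 39 members: the share of its 75-base transcript windows found in another annotated gene (x axis, %) against its mean wild-type level per kilobase of exon (y axis, log scale). Among the members with over 40% of windows shared, Gapdh and Pgam1 sit low (8.79 and 11.7 CPM per kb) and Bnip3 and Eno1 high (234 and 168), and members with no shared window range from low to high.

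Of the lactate dehydrogenase subunits, Ldhb fell and Ldha was not called. Ldhb, whose subunit favours the turn of lactate into pyruvate, stood at 96.2, 117 and 133 CPM in the wild-type libraries and 72.3, 69.7 and 65.4 CPM in the knockout ones. Every knockout library was below every wild-type library, and the mean fell from 115 ± 18.5 CPM in wild type to 69.1 ± 3.44 (1.67-fold lower, log2 fold change −0.74, SE 0.14, adjusted p = 0.0241). With each library left out its log2 fold change ranged from −0.85 to −0.62. Ldha, whose subunit favours lactate production and which is a classic HIF-1 target, stood at 1069, 1326 and 1169 CPM in the wild-type libraries and 1158, 1166 and 1057 CPM in the knockout ones. The groups overlapped, and its log2 fold change was −0.076 with an interval of −0.40 to 0.25 (adjusted p = 0.773). The log2 ratio of Ldhb to Ldha CPM was −3.48, −3.50 and −3.14 in the wild-type libraries against −4.00, −4.06 and −4.01 in the others. The knockout ratio stood at 0.635 of the wild-type one, with no overlap. Pdk1, a kinase that inhibits pyruvate dehydrogenase, and Slc16a3, the lactate exporter MCT4, overlapped between groups (log2 fold changes 0.13 and 0.12, SE 0.25 and 0.41). Slc16a3 had 18 to 108 counts in a library.

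Of the 9 other hypoxia targets, Ddit4 rose and none fell, and the median log2 fold change was −0.0995. Ddit4, also called REDD1, is an inhibitor of mTORC1 that responds to low oxygen, glucocorticoids and other stresses. It stood at 72.6, 54.5 and 37.2 CPM in the wild-type libraries and 119.9, 125 and 92.4 CPM in the knockout ones. The groups did not overlap, and the mean rose 2.05-fold, from 54.8 ± 17.7 CPM in wild type to 112 ± 17.5 (log2 1.04, SE 0.23, adjusted p = 0.0351). With each library left out the log2 fold change ranged from 0.82 to 1.30. Adm, the vasodilator peptide adrenomedullin, stood at 15.4, 19.1 and 19.0 CPM in the wild-type libraries and 26.9, 26.9 and 21.5 CPM in the knockout ones. It did not overlap but missed the threshold (0.49, SE 0.15, adjusted p = 0.0806) except when wild-type replicate 3 was left out (0.0408).

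The remaining targets were not called. Vegfa, the vessel growth factor, stood at 93.8, 109 and 197 CPM in the wild-type libraries and 117, 111 and 146 CPM in the knockout ones, with the widest spread in wild type, where replicate 3 was highest. Bnip3, a mitophagy receptor, stood at 319, 467 and 518 CPM in the wild-type libraries and 345, 326 and 309 CPM in the knockout ones. The knockout libraries lay close together at the lower end of the wild-type range (log2 fold change −0.41, SE 0.18, adjusted p = 0.184). Its relative Bnip3l stood at 136 ± 0.853 CPM in the wild-type libraries and 136 ± 4.67 CPM in the knockout ones (0.0053, interval −0.23 to 0.24). P4ha1 and P4ha2, the alpha subunits of the prolyl hydroxylase of collagen, had log2 fold changes of 0.15 and −0.11. Ndrg1, a stress-induced gene, had −0.24, and Ankrd37, with 10 to 28 counts in a library, −0.18. Leaving out the called Hk3, Ldhb and Ddit4, the 27 tested targets and glycolytic steps ranged from −0.41 to 0.61, and the intervals of 14 lay within a 1.5-fold change and of 24 within a 2-fold change.

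Ratios of related members within a library do not depend on library size. Of 13 planned pairs, 12 could be computed, Aldoc to Aldoa being left out. In 7 pairs the groups did not overlap, and each then had the smallest two-sided p that an exact permutation test of 3 against 3 allows, 0.10, or 0.171 after Benjamini-Hochberg adjustment over the 12 pairs, so this design cannot pass 0.05. Beside Hif1a to Epas1 and Ldhb to Ldha, these were Hk3 to Hk2 (log2 ratio −4.11 ± 1.07 in wild type and −2.30 ± 0.078 in knockout), Hk3 to Hk1 (−2.55 ± 0.83 and −0.91 ± 0.24), Egln1 to Egln3 (6.47 ± 0.48 and 5.59 ± 0.25), Pfkl to Pfkp (0.80 ± 0.16 and 0.43 ± 0.13) and P4ha2 to P4ha1 (−0.10 ± 0.076 and −0.37 ± 0.047). Hk1 to Hk2, Pfkl to Pfkm, Pfkp to Pfkm, Pfkfb3 to Pfkfb4 and Bnip3 to Bnip3l overlapped. Each of the 7 pairs without overlap holds a member whose own groups did not overlap (Hif1a, Egln3, Hk3, Pfkl, Ldhb or P4ha1). These ratios are therefore not separate from the results of the single genes.

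**Figure D4:**
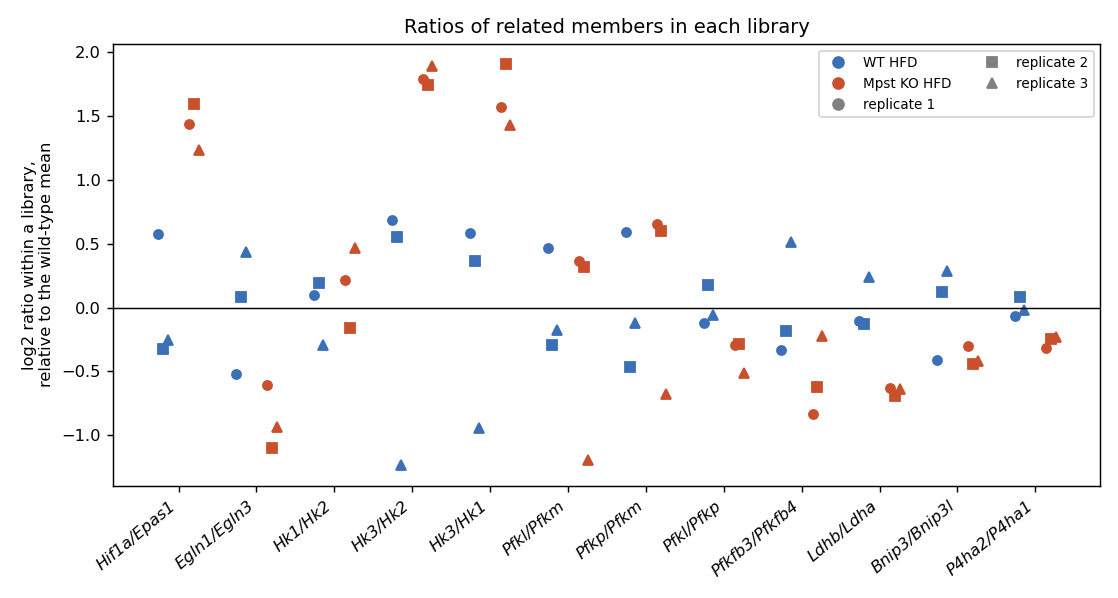
Log2 ratio of CPM of 2 related members in each library, set to 0 at the wild-type mean of each pair; blue points are wild type, orange points knockout, and shapes the replicate number. The knockout libraries lie above all wild-type libraries for Hif1a/Epas1, Hk3/Hk2 and Hk3/Hk1 and below them for Egln1/Egln3, Pfkl/Pfkp, Ldhb/Ldha and P4ha2/P4ha1.

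A wider list of 38 tested hypoxia targets outside the members held 6 that rose and 1 that fell. Of all 14065 tested genes, 4.76% rose and 2.65% fell. The median log2 fold change of the list was 0.25, beside 0.0052 over all tested genes. In the list 26 of the 38 lay above 0, against 7099 of all 14065 tested genes. DESeq2 called 7 higher and 3 lower in this list. The collagen-crosslinking enzymes Lox (1.84-fold, adjusted p = 0.0220) and Loxl2 (1.53-fold, adjusted p = 0.0311) rose, each without overlap between the groups. Also higher were Wsb1, part of a ubiquitin ligase (1.65-fold, adjusted p = 0.0225), Edn1, the vasoconstrictor endothelin-1 (1.97-fold, adjusted p = 0.0348, 4.44 to 4.96 CPM in wild type), and Hmox1, which breaks down heme (1.89-fold, adjusted p = 0.0397). Stc2, the secreted glycoprotein stanniocalcin-2, fell from 17.7 ± 2.53 CPM in wild type to 10.1 ± 0.801 (1.75-fold lower, adjusted p = 0.0284). Many of these genes also answer to signals other than oxygen. Angptl4, a lipase inhibitor that fat makes in quantity, had a log2 fold change of 0.0029.

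**Figure D5:**
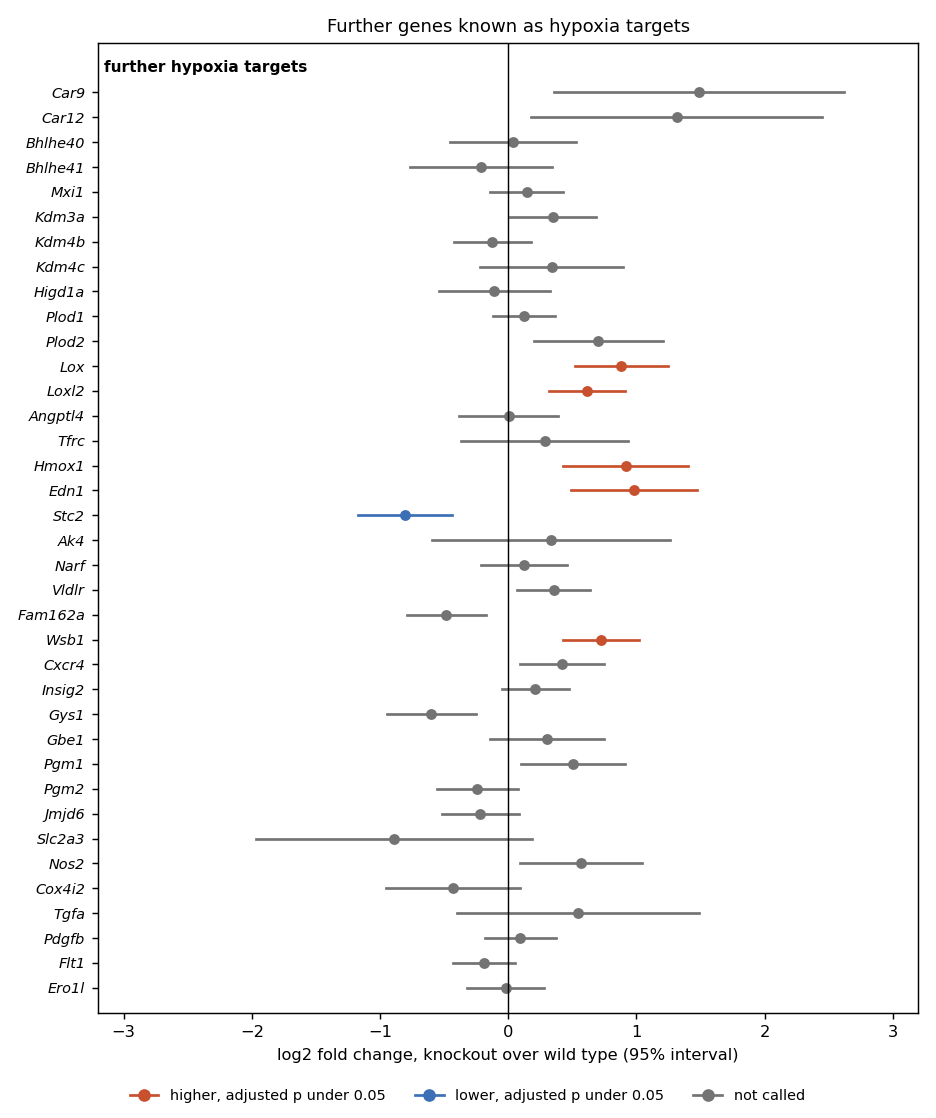
Log2 fold change with 95% interval for 37 of the 38 tested genes of the wider list of hypoxia targets, knockout over wild type (n = 3 libraries a group), coloured as called higher (orange), called lower (blue) or not called (grey). Edn1, Hmox1, Lox, Wsb1 and Loxl2 are orange, Stc2 is blue, and the other 31 are grey.

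In 6 further lists of genes around the pathway, 5 of 77 tested genes were called (6.49%), near the 7.41% of all tested genes. Of 14 further HIF subunits and cofactors, Elob, elongin B, a partner of Vhl in the ubiquitin ligase, fell from 299.6 ± 52.8 CPM in wild type to 180.2 ± 30.9 (log2 fold change −0.73, adjusted p = 0.0438) and none rose. Of 11 further glycolytic isoforms, Pfkfb1 fell from 71.2 ± 14.0 CPM in wild type to 42.3 ± 1.71 (−0.75, adjusted p = 0.0274) and none rose. None of 17 glucose and monocarboxylate transporters was called by edgeR, with 2 higher and 1 lower at an unadjusted p under 0.05, while limma-voom called none and DESeq2 called 1 lower. The smallest p was that of Slc16a1, the lactate transporter MCT1 (0.53, adjusted p = 0.0861). Of 17 genes of pyruvate dehydrogenase, pyruvate entry into mitochondria and related enzymes, Dlat of pyruvate dehydrogenase was higher (1.53-fold, adjusted p = 0.0231). Gk, glycerol kinase, was higher among 9 genes of gluconeogenesis and glycerol 3-phosphate (2.32-fold, from a mean of 8.65 to 20.1 CPM, adjusted p = 0.0128). Rpe, ribulose phosphate epimerase, was higher among 9 genes of the pentose phosphate pathway (1.69-fold, adjusted p = 0.0152). None fell in these last 3 lists with edgeR, and DESeq2 called 2 pentose phosphate genes lower. All 12 calls in these wider lists ended without wild-type replicate 2 or any 1 knockout library.

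Markers of other cells also differed between the genotypes, beside a background of 4.76% of all tested genes called higher and 2.65% lower by edgeR. Of 15 macrophage markers, none of them at 0, 8 rose and none fell with edgeR (11 and none with DESeq2), and their summed level was 1838, 1558 and 946 CPM in the wild-type libraries and 2571, 2851 and 2630 CPM in the knockout ones. Wild-type replicate 3 was lowest in these markers and also lowest in Hk3, Pfkfb4 and Ddit4. Hif1a stood at 32.8 CPM there and at 31.1 CPM in wild-type replicate 2. Wild-type replicate 1 and knockout replicate 2 were the highest of their groups in the summed level of these markers. Some single markers, such as Adgre1, Itgam and Lyz2, were highest in another knockout library. Of the 9 members higher in knockout without overlap, Hif1a, Hk3, Pfkfb4, Ddit4, Egln3 and P4ha1 were also highest of their groups in those replicates. The others, Pgam1, Pgk1 and Adm, were instead lowest of wild type in replicate 1. Of 7 fibroblast or progenitor markers, 3 rose and none fell with edgeR, and 4 rose and 1 fell with DESeq2. Their summed level was 2659 to 3708 CPM in the wild-type libraries and 4304 to 5368 CPM in the knockout ones. Of this, Col3a1 alone made 1591 to 2012 CPM and 2412 to 3267 CPM. The mean log2 level of the 7 markers relative to wild type overlapped, at 0.379, 0.104 and −0.483 against 0.270, 0.138 and 0.352. Pi16, a marker of progenitors in that list, stood at 127, 152 and 28.6 CPM against 31.7, 13.6 and 27.3 CPM. It was not called by edgeR (log2 fold change −2.10, adjusted p = 0.109), nor was Dpp4 (−0.46, adjusted p = 0.416). The other 5 markers of the list lay above 0. Of 10 adipocyte markers 2 fell and none rose with edgeR (4 and none with DESeq2). Of 5 T cell, 4 B cell and 3 neutrophil markers tested, none was called by edgeR, with 3 higher at an unadjusted p under 0.05, and DESeq2 called 1 T cell marker higher. Epithelial markers were too low to test, Krt14 being at 0, and 4 hemoglobin genes were listed at 0. Of 6 endothelial markers 1 rose with edgeR and 2 with DESeq2 (summed level 764 to 806 against 914 to 1085 CPM). The share of the counter's total outside gene counts, 29.2% to 34.8% in wild type and 25.5% to 26.4% in knockout, differed without overlap as well. In bulk tissue more cells of a type and more RNA per cell cannot be told apart. The part of these cells or that share in the change of Hif1a, Hk3, Ddit4, Ldhb, Egln2 and the wider hypoxia targets was not tested.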

How the data were processed

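The deposited files hold raw read counts per gene symbol for 24984 genes. HISAT2 2.1.0, HTSeq 0.13.5, DESeq2 1.26 and the mouse build mm10 are named in the submitters' processing notes. Reads were single-end, 75 bases long, from the TruSeq RNA v2 kit per the labels' protocols, a kit that does not mark strand. No source used here gives the annotation or the counter's settings. The counter's summary lines, 25.5% to 34.8% of its total in a library, were left out.

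Genes were filtered with filterByExpr (14065 kept), scaled by TMM and tested over all 6 libraries with edgeR 4.0.16 (robust quasi-likelihood F test, R 4.3.3). P-values were adjusted by Benjamini-Hochberg over all tested genes and called under 0.05. CPM uses the TMM-scaled library size, and SE is the absolute log2 fold change over the square root of F. Positions, exon lengths (basic set) and transcript windows came from GENCODE M21 (GRCm38, the assembly of mm10), where 2 gene models carry the symbol Aldoa, and promoters from RefSeq (GRCm38.p6).

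The members and gene lists were chosen with earlier results of these data known. Named are all members and, from each wider list, the called genes (at most 6, smallest p first) or the gene with the smallest p. Hmox1, the next called target, and Angptl4 were named after their values were seen. The values of 1 called hypoxia target of the wider list are not reported here. Alternatives were other scalings and filters, DESeq2 1.42.0, limma-voom (limma 3.58.1), a replicate block and each library left out. Leaving out both libraries highest in muscle markers was added after seeing the data.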

Additional observations from a re-analysis of the deposited data

How the results depend on the processing

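Hif1a, Hk3, Ddit4, Egln2 and Ldhb kept their calls and directions with relative log expression and upper-quartile scaling, DESeq2, limma-voom, all genes with a count kept, a mean of at least 10 CPM required, a fit without robust estimation and the replicate block. With each library left out, 0 to 5 members were higher and 0 to 2 lower, and 0 to 1434 and 1 to 1167 of all tested genes, against 669 and 373 in the full fit. DESeq2 called 1026 genes higher and 877 lower (53.9% higher, against 64.2%). The replicate block gave 1387 and 1289 over all genes and 4 and 2 members, the fourth being Pgam1 (adjusted p = 0.0496). The labels number the replicates without saying whether the numbers pair the libraries. Deviations from the group means correlated at 0.171, −0.099 and 0.303 for same-numbered libraries and at −0.399 to 0.357 for the others. With 3 libraries a group these values cannot decide it. Without the 2 libraries highest in muscle markers, 0 members were higher and 0 lower, and 0 and 1 of all genes, while the 5 log2 fold changes stayed close to the full fit (Hif1a 1.36, Hk3 1.76, Ddit4 1.16, Egln2 −0.45, Ldhb −0.69). These fits have fewer samples. With each library left out, the median log2 fold change ranged from −0.054 to 0.23 for the HIF factors, from −0.19 to 0.088 for pyruvate and lactate genes and from −0.13 to 0.0099 for other hypoxia targets. Without the 2 libraries high in muscle it was −0.21 and 0.033 for the last 2 lists. The cause was not tested. Depth limits Aldoc, Egln3, Ankrd37 and Slc16a3 most.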
